A study of Mus musculus with 18 samples.

Results

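Aminoacyl-tRNA synthetases are the enzymes that attach each amino acid to its tRNA. In the RNA-Seq tables of embryonic mouse lungs, their genes were taken as every row named with a capital letter followed by ars, with or without a final 1 or 2, together with Eprs, Farsa and Farsb. The rule found 37 of the 23420 genes in the tables, of which 20 had no 2 at the end and encode cytosolic enzymes, and 17 ended in 2 and encode mitochondrial enzymes. No measured value entered the rule.

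Whole lungs were collected at 14.5 days post coitus (dpc) from 3 mouse lines. Deficient lungs were Rptorf/f; ShhCre/+, Tfamf/f; ShhCre/+ or Cox10f/f; ShhCre/+, and their littermate controls were Rptorf/+; ShhCre/+, Tfamf/+; ShhCre/+ or Cox10f/+; ShhCre/+, with 3 libraries in each of the 6 groups. All lungs thus carried 1 ShhCre allele, which places Cre at the Shh locus, and the controls carried 1 floxed copy of the targeted gene. Rptor encodes Raptor, part of the mTORC1 kinase complex, Tfam a protein that packages mitochondrial DNA and starts its transcription, and Cox10 an enzyme needed to make the heme group of cytochrome c oxidase. ShhCre recombines in the epithelium, whereas RNA came from the whole lung with its mesenchyme, vessels and blood cells, so that fewer cells of a type and less RNA per cell cannot be told apart in any value below. The sources used here do not say which libraries came from separate litters, so p-values measure the spread between these libraries.

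Most synthetases recognise a single amino acid and its tRNAs, while Eprs charges both glutamate and proline, and the charged tRNAs are then carried to the ribosome. The cytosol and the mitochondrion use separate sets of enzymes, except that the glycine and lysine enzymes of both compartments come from the same genes, Gars and Kars. Mammals have no separate mitochondrial glutamine enzyme: Ears2 first loads glutamate, which the GatCAB amidotransferase (subunits Qrsl1, Gatb and Gatc) converts. Several cytosolic enzymes sit in the multisynthetase complex with the scaffold proteins Aimp1, Aimp2 and Eef1e1. When amino acids run short or mitochondria are under stress, eIF2 kinases raise translation of the transcription factor ATF4, which is known to act on many cytosolic synthetase genes together with genes of amino acid synthesis and transport. mTORC1 is also known to act on ATF4.

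ATF4 binds with C/EBP partners to an element whose core reads TGATGNAA. The RefSeq promoter table (GRCm38, 250 bases before to 50 after the start of transcription) held sequence for 27 of the 37 genes, 13 cytosolic and 14 mitochondrial; among those not matched were Cars, Hars, Hars2, Lars, Nars, Pars2, Rars, Vars and Wars. The core was present on either strand in 5 of the 13 cytosolic promoters and in 0 of the 14 mitochondrial promoters, against 4.51% of the 27025 genes with a promoter. A match of each of the 5 genes is shown because these are the letters that the promoters share; each window has 10 bases on either side of the match, is written 5′ to 3′ on the strand of the gene, and has the match in capitals. In all but Yars the core is on the other strand and therefore reads backwards, as its complement.
Aars: gcgggtcactTTTCATCAgagcgctctg
Gars: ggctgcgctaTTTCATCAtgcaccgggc
Iars: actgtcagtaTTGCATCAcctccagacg
Tars: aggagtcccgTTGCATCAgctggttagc
Yars: cgagctcagcTGATGCAAcccgacggga

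The Aars window lies at chr8:111033841-111033868 on the plus strand, with the match at bases 10 to 17 from the RefSeq start, in an annotated exon. The Gars window, chr6:55037961-55037988 on the plus strand, has its match at -30 to -23 and lies in no annotated exon of Gars. The Tars window, chr15:11399656-11399683 on the minus strand, has its match at -15 to -8, and 10 of its 28 bases are in an annotated exon. The Iars window is chr13:49682127-49682154, plus strand, and the Yars window is chr4:129189896-129189923, plus strand. Their matches lie at bases 8 to 15 and 4 to 11, in annotated exons. A match of these letters is a description of the sequence and not evidence of binding.

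Normalised read counts, which are read counts divided by a size factor of the library, summed to between 27727200 and 29611100 per library, and the 37 genes held between 0.313% and 0.411% of them. Replicates of a group correlated at 0.991 to 0.995 over genes on the log2 scale, and no pair of replicates of a group was alike within sampling noise (chi-square per gene at least 4.12). The targeted transcripts did not pass the threshold in their own lines (limma log2 fold changes of -0.07 for Rptor, -0.12 for Tfam and -0.01 for Cox10; adjusted p = 0.570, 0.472 and 0.979), and which exons the floxed alleles lose was not analysed here. Markers of several cell types moved with genotype. In the Rptor line, 8 of 8 epithelial markers were lower and 7 of 8 mesenchymal, 5 of 5 endothelial, 5 of 5 leukocyte and 3 of 4 mesothelial markers were higher, while 0 of 4 erythroid, 0 of 3 tested heart muscle and 0 of 4 neural markers passed the threshold; of all genes tested in this line, 18.2% were lower and 16.6% higher. In the Tfam line, 3 of 8 epithelial markers were lower and 1 of 4 heart muscle markers, Nppa, was higher; in the Cox10 line only the epithelial marker Foxa2 passed, and was lower. Over all genes, 2.63% were lower and 2.03% higher in the Tfam line and 0.335% were lower in the Cox10 line. No listed marker was at 0 throughout a line.

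All 37 genes were measured well above the filter of 10 normalised reads and all were tested in every line. Set per kilobase of annotated exon and taken over the 9 control libraries, whose tables were scaled separately, the median levels of the cytosolic genes ran from 272 for Cars, the cysteine enzyme, to 1807 normalised reads per kb for Kars, the lysine enzyme. Gars followed at 1593, Nars, the asparagine enzyme, at 1523 and Vars, the valine enzyme, at 1473. The ranges of these 4 genes over the control libraries overlapped, so that their order is not resolved.

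The mitochondrial genes lay lower, from 29.0 for Mars2, the methionine enzyme, to 369 normalised reads per kb for Rars2, the arginine enzyme. The median over the genes was 194 for the mitochondrial and 956 for the cytosolic list. Cars was the only cytosolic gene whose median fell below that of any mitochondrial gene. Exon length is the union over all annotated transcripts, so long alternative exons lower the level of a gene such as Mars2, whose union spans 11294 bases.

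**Figure D1:**
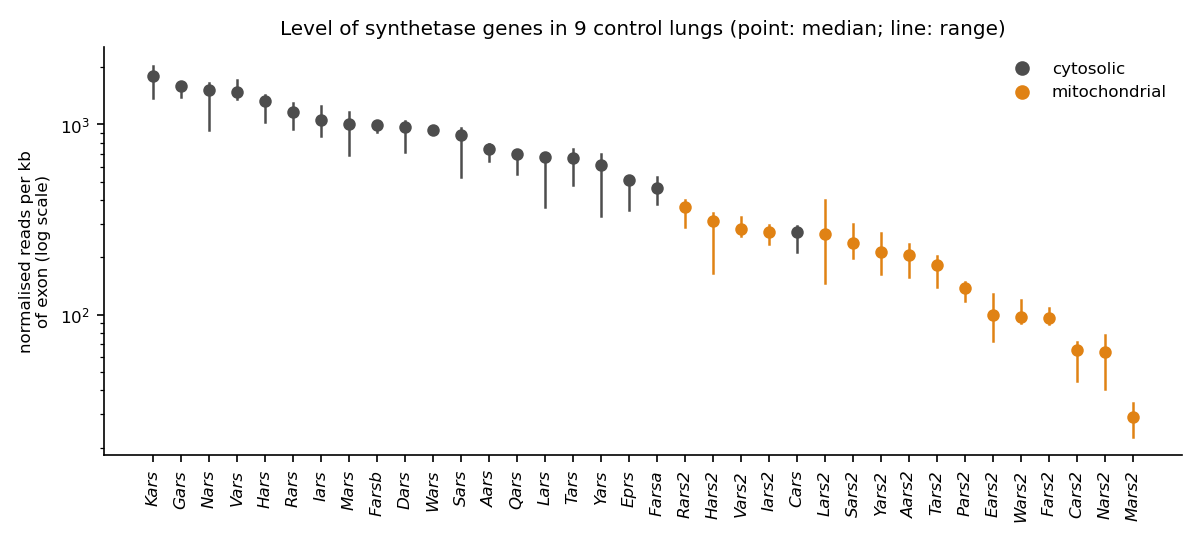
Level of 36 of the 37 synthetase genes in the 9 control lungs, in normalised reads per kb of annotated exon on a log axis; points are medians and lines run from the lowest to the highest library. Cytosolic genes (grey) lie between 272 and 1807 and mitochondrial genes (orange) between 29.0 and 369, with Cars as the only cytosolic gene among the mitochondrial ones.

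Loss of Rptor was accompanied by lower transcripts of most cytosolic synthetases. In Rptor-deficient lungs 17 of the 20 cytosolic genes were lower and 0 were higher (limma on log2(value + 1), adjusted p below 0.05), where 34.8% of all 14940 genes tested passed the threshold in either direction, 18.2% lower and 16.6% higher. Their median log2 fold change was -0.35, beside 0.01 for all genes tested, and the changes of those past the threshold ran from -0.17 for Kars to -0.55 for Mars. The exceptions were Hars, the histidine enzyme, Sars, the serine enzyme, and Qars, the glutamine enzyme, with log2 fold changes of -0.15, -0.04 and 0.12 (limma adjusted p = 0.0759, 0.663 and 0.188). Control and deficient values did not overlap in 18 of the 20 genes, all with the deficient lungs below, against 26.0% of all genes tested.

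Mars, which charges the initiator and elongator methionine tRNAs of the cytosol, had normalised read counts of 3366, 3436 and 3516 in control and 2527, 2352 and 2159 in Rptor-deficient lungs. All 3 deficient values lay below all 3 control values. The log2 fold change was -0.55 (SE 0.066; adjusted p = 0.000602, limma), so that the level fell by 31.9%. Exons of Mars and of Ddit3, which encodes the stress factor CHOP, share 68 bases on opposite strands; whether strand was used in counting is not given in the sources used here.

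Cars had 1791, 1901 and 1806 normalised reads in control and 1232, 1354 and 1238 in Rptor-deficient lungs. The groups were again separate, and the log2 fold change was -0.52 (SE 0.063; adjusted p = 0.000634, limma). Aars, the alanine enzyme, had 6815, 6906 and 7303 normalised reads in control and 4694, 5167 and 4966 in Rptor-deficient lungs. Its values were separate too, with a log2 fold change of -0.50 (SE 0.056; adjusted p = 0.000465, limma), and 14.3% of its exon bases are shared with Exosc6 on the same strand.

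Gars counts were 5062, 5095 and 5100 in control and 3816, 3594 and 3566 in Rptor-deficient lungs. The 3 control values were close together and above all deficient ones, and the log2 fold change was -0.48 (SE 0.050; adjusted p = 0.000359, limma). Farsb encodes a subunit of the phenylalanine enzyme, whose other subunit is Farsa. Farsb had 2700, 2574 and 2497 normalised reads in control and 2044, 1801 and 1879 in Rptor-deficient lungs, which did not overlap (log2 fold change -0.44, SE 0.065; adjusted p = 0.00151, limma). Farsa fell in the same lungs, by 0.31 on the log2 scale (limma adjusted p = 0.00508).

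Kars is the other gene that serves both compartments. Its normalised read counts were 8068, 7979 and 8282 in control and 7564, 7179 and 6926 in Rptor-deficient lungs. These did not overlap, and the log2 fold change was -0.17 (SE 0.052; adjusted p = 0.0355, limma). Leaving out any library but deficient replicate 1 ended this call, with the highest adjusted p at 0.118. Sars, in contrast, had 4897, 4222 and 4958 normalised reads in control and 4520, 4504 and 4611 in deficient lungs, which lay inside the range of the controls.

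The decrease was seen in both structural classes of cytosolic enzyme and inside and outside the multisynthetase complex. It included 9 of the 10 class I and 8 of the 10 class II genes, with Eprs, whose glutamate domain is class I and whose proline domain is class II, counted under class I, beside 18.2% of all genes tested that were lower in this line. Of the 8 cytosolic genes whose products sit in the complex (Dars, Eprs, Iars, Kars, Lars, Mars, Qars and Rars) 7 were lower, with a median log2 fold change of -0.24, and of the 12 others 10 were lower, with a median of -0.38. All 5 genes with the ATF4 core in the promoter were lower, as were 6 of the 8 with a promoter sequence and no match, and 6 of the 7 without a promoter sequence.

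Of the 17 mitochondrial synthetases, 7 were lower in Rptor-deficient lungs and 0 were higher, where 18.2% of all genes tested were lower and 34.8% passed in either direction. The median log2 fold change over the list was -0.15; among those past the threshold were Mars2, Yars2, Sars2, Tars2, Iars2 and Aars2. Mars2 had 387, 374 and 327 normalised reads in control and 199, 258 and 270 in Rptor-deficient lungs. The groups did not overlap. The log2 fold change of -0.59 was the largest in size among the 37 genes in this line, as was its SE of 0.14 (limma adjusted p = 0.0120).

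Yars2, the tyrosine enzyme, had 721, 655 and 660 normalised reads in control and 469, 492 and 578 in Rptor-deficient lungs, which did not overlap (log2 fold change -0.41, SE 0.098; adjusted p = 0.0132, limma). Sars2 had 661, 699 and 715 in control and 506, 597 and 555 in Rptor-deficient lungs, also without overlap (log2 fold change -0.33, SE 0.086; adjusted p = 0.0197, limma). Sars2 and the cytosolic Sars thus gave different calls in the same lungs, a difference that was not itself tested. The remaining 10 mitochondrial genes had log2 fold changes between -0.21 for Nars2 and 0.17 for Fars2, with adjusted p of 0.0823 and above.

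The cytosolic genes were low in each of the 3 Rptor-deficient libraries. The mean deviation of the 20 cytosolic genes from their control mean was -0.30, -0.31 and -0.33 on the log2 scale in these libraries, and 19 of the 20 genes lay below the control mean in each; for the 17 mitochondrial genes it was -0.14, -0.15 and -0.14. When each library was left out in turn, between 14 and 16 cytosolic genes were lower, and 14 of the 17 passed in every one of the 6 fits, all except Dars, Eprs and Kars. The mitochondrial count ranged from 2 without control replicate 2 to 6, with 3 without control replicate 1 and 4 without deficient replicate 2 or 3, and only Iars2, the isoleucine enzyme, passed in every fit. Mars2 was lost without control replicate 2, where its adjusted p lay just above the threshold, Yars2 without control replicate 1 (adjusted p = 0.0531, limma) and Sars2 without control replicate 2 or 3 (0.0646 and 0.0726). Iars2 shares 22.9% of its exon bases with Rab3gap2 on the opposite strand. With the replicate number as a block, which treats control and deficient libraries of the same number as pairs, Aars2 was no longer past the threshold (limma adjusted p = 0.0548, against 0.0412 without it). Epithelial marker counts summed to between 28817 and 29972 in control and between 11576 and 15401 in Rptor-deficient lungs, and their part in the decrease of the synthetases was not tested.

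**Figure D2:**
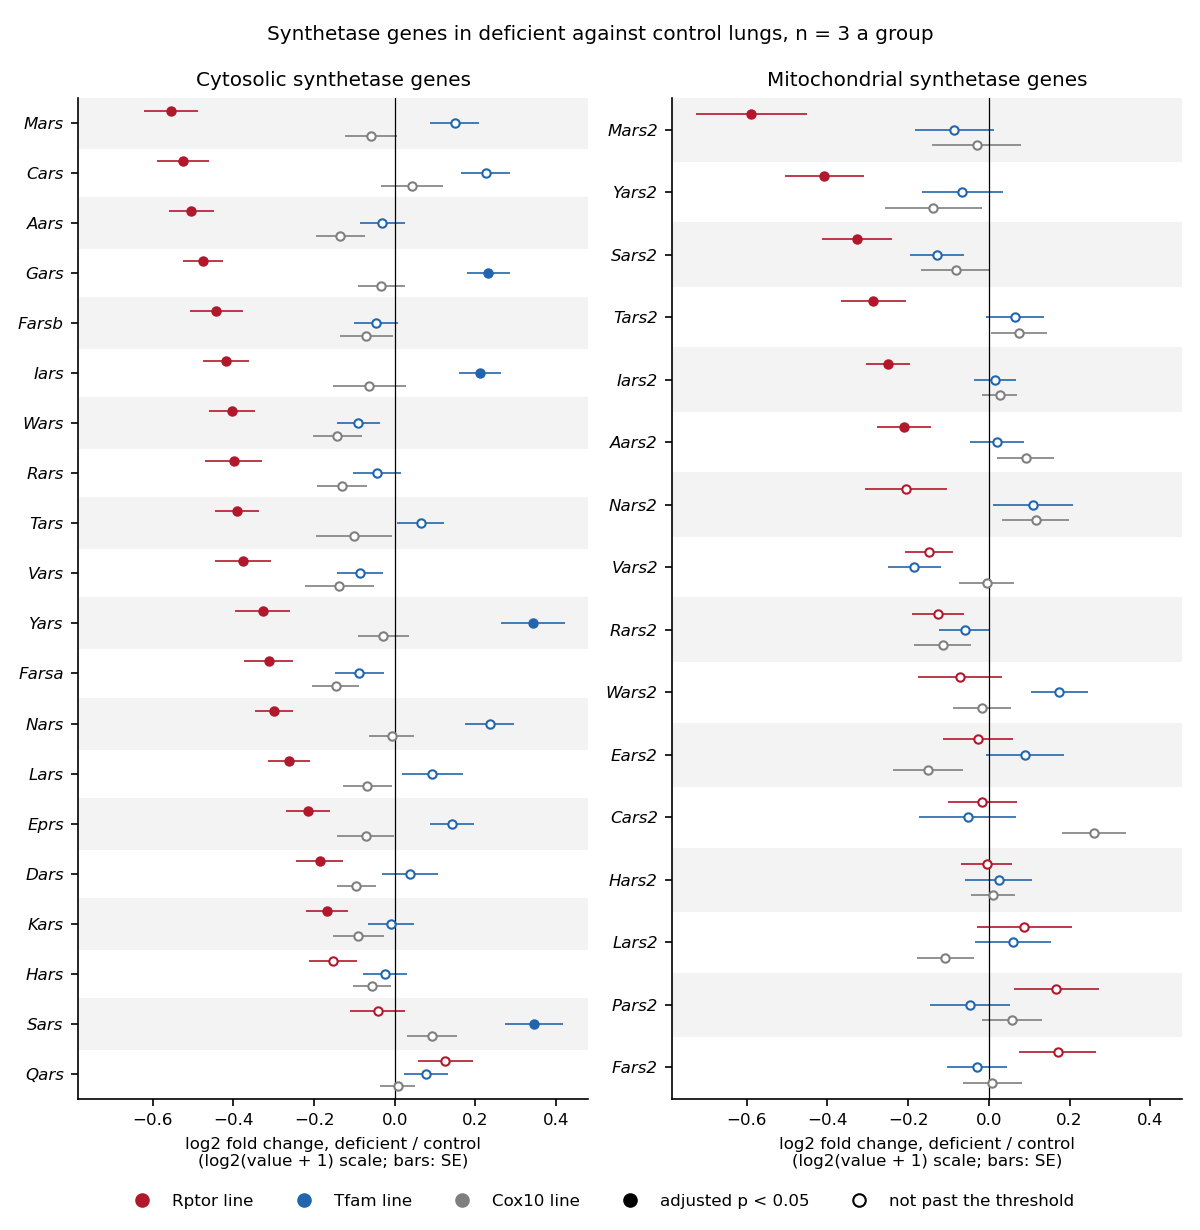
Log2 fold change, deficient against control, of the 20 cytosolic (left) and 16 of the 17 mitochondrial (right) synthetase genes in the Rptor (red), Tfam (blue) and Cox10 (grey) lines, with n = 3 a group; points are limma estimates, bars are SE, and filled points passed an adjusted p of 0.05. In the Rptor line 17 cytosolic and 6 mitochondrial points are filled, all left of 0; in the Tfam line Gars, Iars, Sars and Yars are filled, right of 0; in the Cox10 line no point is filled.

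Loss of Tfam was accompanied by higher transcripts of 4 cytosolic synthetases. Sars, Yars, Gars and Iars were higher in Tfam-deficient lungs and 0 of the 37 genes were lower (limma, adjusted p below 0.05), where 4.66% of the 15053 genes tested passed in either direction, 2.03% higher and 2.63% lower. The median log2 fold change was 0.07 over the cytosolic and -0.03 over the mitochondrial list, beside 0.00 for all genes tested, and 0 of the 17 mitochondrial genes passed. In 8 of the 20 cytosolic genes all deficient values lay above all control values, against 10.9% of all genes tested, and in 1, Wars, all lay below. Of the mitochondrial genes 5 lay separately below and 1 above the controls, where 11.8% of all genes lay below. At an unadjusted p below 0.05 there were 8 cytosolic and 3 mitochondrial genes, against 17.4% of all genes.

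Sars, one of the few cytosolic genes that had not passed in the Rptor line, had 2745, 2709 and 3259 normalised reads in control and 3665, 3639 and 3725 in Tfam-deficient lungs. The groups did not overlap, and control replicate 3 lay above the other controls. The log2 fold change was 0.35 (SE 0.073; adjusted p = 0.0218, limma), an increase of 27.0%. Yars, the cytosolic tyrosine enzyme, had 1961, 2062 and 2434 in control and 2672, 2655 and 2828 in Tfam-deficient lungs. Control replicate 3 was again the highest control, yet below every deficient value, and the log2 fold change was 0.34 (SE 0.079; adjusted p = 0.0328, limma).

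Gars had 4371, 4386 and 4661 normalised reads in control and 5222, 5277 and 5254 in Tfam-deficient lungs. The deficient values were close together and above every control (log2 fold change 0.23, SE 0.053; adjusted p = 0.0320, limma). Iars, the cytosolic isoleucine enzyme, had 4605, 4817 and 4729 in control and 5346, 5420 and 5618 in Tfam-deficient lungs, without overlap, and a log2 fold change of 0.21 (SE 0.053; adjusted p = 0.0473, limma).

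Gars, Iars and Yars had all moved the other way in the Rptor line. Iars counts there were 5313, 5809 and 5562 in control and 4377, 4074 and 4039 in Rptor-deficient lungs (log2 fold change -0.42, SE 0.057; adjusted p = 0.00110, limma). Yars counts were 3503, 3731 and 4148 in control and 3073, 3024 and 2956 in Rptor-deficient lungs (log2 fold change -0.33, SE 0.068; adjusted p = 0.00708, limma). Both genes had separate groups in both lines, below the controls without Rptor and above them without Tfam. These 3 genes are also among the 5 with the ATF4 core in the promoter; the others, Aars and Tars, did not pass in the Tfam line (-0.03 and 0.06 on the log2 scale; limma adjusted p = 0.831 and 0.624).

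Nars and Cars lay just outside the threshold in the Tfam line. Nars had a log2 fold change of 0.24 (limma adjusted p = 0.0538) and Cars one of 0.23 (limma adjusted p = 0.0626), with separate groups in both. Mars gave 0.15 (limma adjusted p = 0.238) and Aars, as above, showed no change that could be told from the replicate spread. Kars had a log2 fold change of -0.01 (SE 0.056; adjusted p = 0.958, limma).

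The 4 calls of the Tfam line were lost in most fits that left out a library. Without control replicate 1 or 2, or without deficient replicate 1, 2 or 3, 0 cytosolic genes passed the threshold. In those fits 2.41% to 3.31% of all genes passed, against 4.66% with all libraries. Without control replicate 3 there were 7, Cars, Mars and Nars joining the 4, where 7.46% of all genes passed. The log2 fold changes themselves stayed positive in each of these fits, between 0.30 and 0.43 for Sars, 0.28 and 0.43 for Yars, 0.22 and 0.26 for Gars and 0.19 and 0.23 for Iars, with the highest adjusted p at 0.106, 0.146, 0.140 and 0.187. Iars also missed the threshold when no filter on low values was used (limma adjusted p = 0.0618). Summed epithelial marker counts were 27454 to 28824 in control and 22251 to 24708 in Tfam-deficient lungs, and heart muscle marker counts were 2685 to 7108 and 4706 to 14188; the part of either in the synthetase values was not tested.

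**Figure D3:**
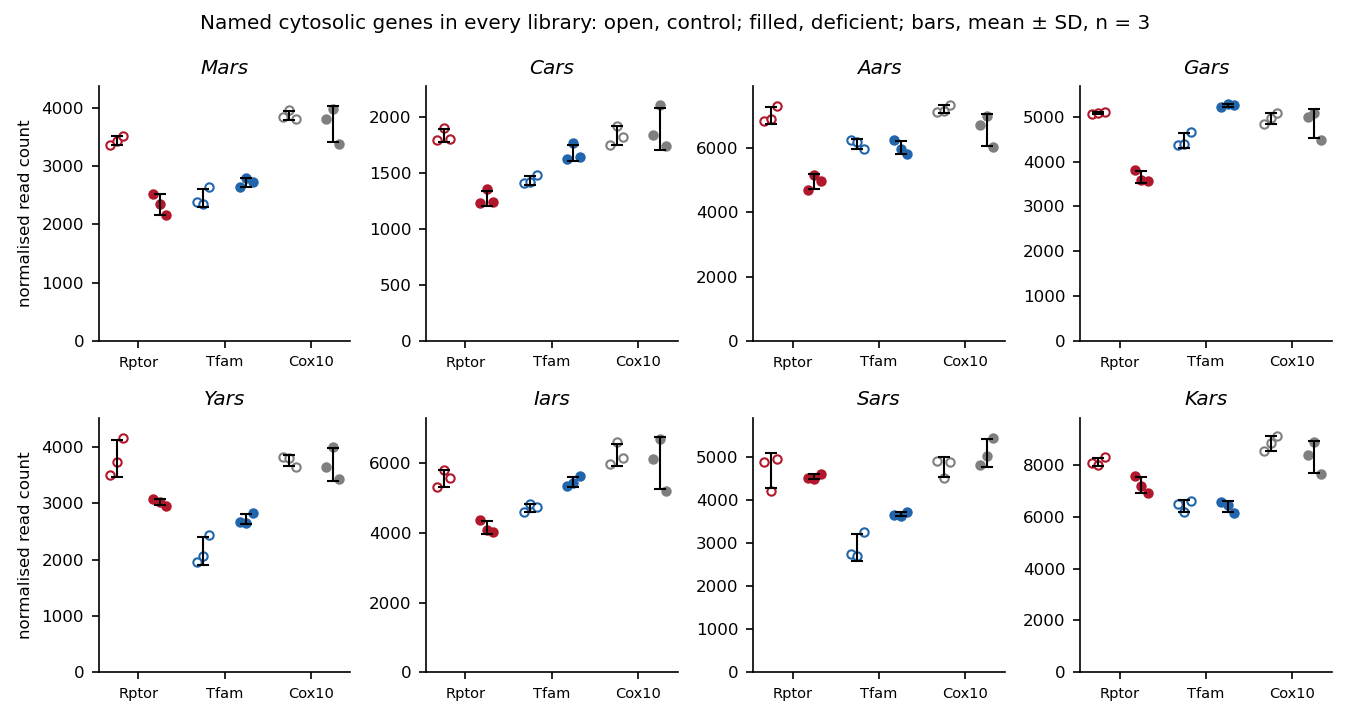
Normalised read counts of 8 cytosolic synthetase genes in every library of the Rptor (red), Tfam (blue) and Cox10 (grey) lines, with control libraries as open and deficient libraries as filled points; bars are mean ± SD, n = 3, and the axes start at 0. Gars, Yars and Iars lie below their controls in the Rptor line and above them in the Tfam line, and Sars is separate from its controls in the Tfam line only.

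Loss of Cox10 was accompanied by no call among the synthetases. In Cox10-deficient lungs 0 of the 37 genes passed the threshold (limma; 3 at an unadjusted p below 0.05), where 71 of 14937 genes, or 0.475%, passed (0.141% higher and 0.335% lower) and 13.0% had an unadjusted p below 0.05. The median log2 fold change was -0.07 over the cytosolic and -0.01 over the mitochondrial list, and the lowest adjusted p was 0.266, for Cars2. This mitochondrial cysteine enzyme had 441, 471 and 477 normalised reads in control and 549, 593 and 522 in Cox10-deficient lungs, which did not overlap (log2 fold change 0.26). Control and deficient values were also separate in 4 cytosolic genes, Aars, Dars, Farsa and Wars, all with the deficient lungs below, against 10.8% of all genes. The SEs of the 37 log2 fold changes lay between 0.043 and 0.12.

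One library of this line stood apart in the cytosolic genes. The mean deviation of the 20 cytosolic genes was -0.05, 0.02 and -0.17 in the Cox10-deficient libraries, and replicate 3 was the lowest of all 6 libraries of the line in 19 of the 20 genes. In the exception, Sars, it was the highest, with 4925, 4515 and 4887 normalised reads in control and 4812, 5027 and 5450 in Cox10-deficient lungs. Without this library the cytosolic genes had positive log2 fold changes in 10 and negative ones in 10 of the 20, compared with 3 and 17 with it, and still 0 passed. Gars had 4837, 4970 and 5076 in control and 5006, 5081 and 4475 in Cox10-deficient lungs, so that replicate 3 alone was below the controls. Epithelial marker counts summed to between 21949 and 22332 in control and between 15167 and 20071 in Cox10-deficient lungs, with the highest deficient sum in replicate 3. That library also had the highest sum of endothelial markers, 33337 against 23121 and 20999 in the other deficient lungs, and the lowest of erythroid markers, 28206 against 51306 and 47956. Its sums were likewise the highest for mesenchymal (292171 against 245900 and 208693) and leukocyte markers (2606 against 1890 and 1838). For neural markers its sum was the lowest (269 against 761 and 331). Its mesothelial and heart muscle sums lay within the range of the controls. The part of these markers in the synthetase values was not tested.

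**Figure D4:**
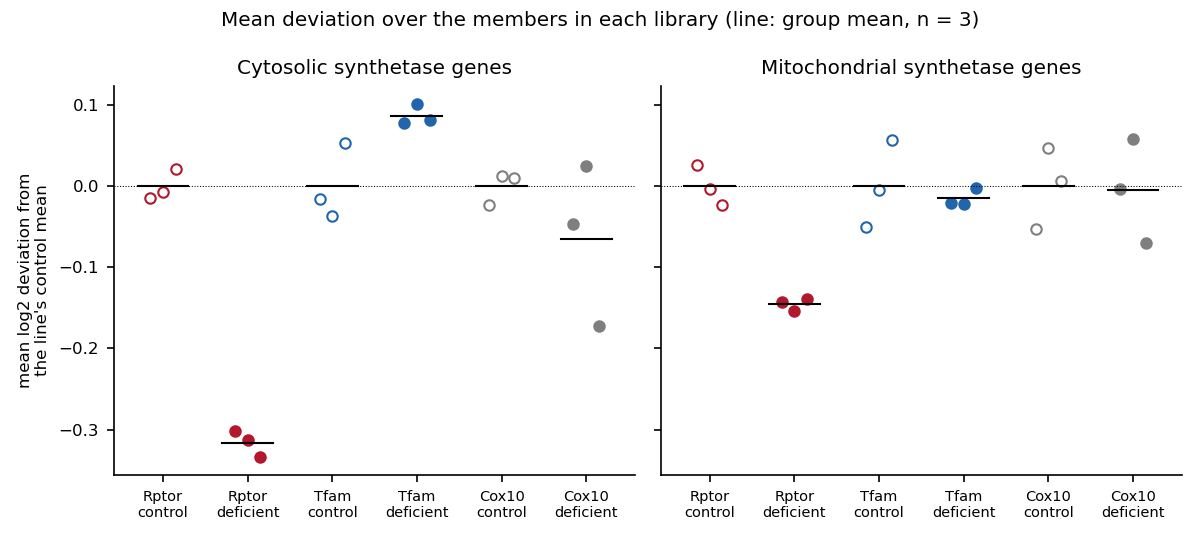
Mean log2 deviation of the 20 cytosolic (left) and 17 mitochondrial (right) synthetase genes from the control mean of their line in each of the 18 libraries (open, control; filled, deficient), with horizontal bars at the group means of n = 3. The Rptor-deficient libraries lie at -0.30 to -0.33 on the left and -0.14 to -0.15 on the right, the Tfam-deficient libraries lie above their controls on the left, and Cox10-deficient replicate 3, at -0.17, is apart from the others of its group.

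The differences between the lines were tested directly in a fit of all 18 libraries. The effect of Tfam loss was more positive than that of Rptor loss in 16 of the 37 genes and more negative in 0 (limma interaction contrast, adjusted p below 0.05 over 14548 genes), where 11.2% of all genes passed in either direction, 6.35% positive and 4.83% negative. These were 14 cytosolic genes, all but Dars, Farsa, Hars, Kars, Qars and Vars, and the mitochondrial Iars2 and Tars2. The largest difference was that of Cars, 0.75 on the log2 scale (SE 0.0945; adjusted p = 0.000115, limma), followed by Gars with 0.71, Mars with 0.70, Yars with 0.67 and Iars with 0.63. Leaving out a library left between 12 and 18 genes.

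The effect of Rptor loss was more negative than that of Cox10 loss in 9 genes and more positive in 0, against 7.49% of all genes in either direction, 4.21% negative and 3.28% positive. They were the cytosolic Aars, Cars, Farsb, Gars, Iars, Mars, Nars and Wars and the mitochondrial Iars2, and Cars again differed most (-0.57, SE 0.0945; adjusted p = 0.00135, limma). Without Cox10-deficient replicate 3 the count was 18, and the share of all genes passing in that fit is not given here. Within the Cox10 line alone, leaving out this library raised the share of all genes passing from 0.475% to 1.68%. Between Tfam and Cox10 loss 0 of the 37 genes passed (limma), where 0.055% of all genes did; at an unadjusted p below 0.05 there were 8, where 4.56% of all genes were. The median difference was 0.15 over the cytosolic genes, with 20 of 20 above 0, and -0.01 over the mitochondrial genes. Without Cox10-deficient replicate 3 the cytosolic median was 0.08, with 17 above 0 and 3, Farsb, Vars and Wars, below it, and the mitochondrial median was -0.06. A difference between the Tfam and Cox10 lines in these genes is thus not shown by this test, nor is its absence.

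Of the 3 scaffold genes of the multisynthetase complex, 2 were lower in the Rptor line, beside 18.2% of all genes. Aimp2 had 1391, 1451 and 1397 normalised reads in control and 842, 1027 and 913 in Rptor-deficient lungs. The groups were separate, with log2 fold change -0.61 (SE 0.081; adjusted p = 0.000963, limma). Eef1e1 was lower as well (-0.35, limma adjusted p = 0.0278), and Aimp1 had -0.07 (limma adjusted p = 0.544). In the Tfam and Cox10 lines 0 of the 3 passed.

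Among relatives and accessory enzymes, 4 of the 8 measured were lower in Rptor-deficient lungs, again beside 18.2% of all genes. Qrsl1 and Gatc, subunits of the amidotransferase that completes mitochondrial glutamine charging, had log2 fold changes of -0.44 and -0.30 (limma adjusted p = 0.00649 and 0.0208). Tarsl2, a threonine enzyme encoded beside Tars and Tars2, had -0.34, and Aarsd1, which clears mischarged alanine tRNA, had -0.29 (limma adjusted p = 0.0354 and 0.0126). In the Tfam and Cox10 lines 0 of the 8 passed; Gatb was not analysed here.

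Several genes of the ATF4 response, like Gars, Iars and Yars, were lower in the Rptor line and higher in the Tfam line. In Tfam-deficient lungs 15 of the 20 tested were higher and 0 lower; in Rptor-deficient lungs 7 of 19 were lower and 2, Ddit3 and Pycr1, higher; in Cox10-deficient lungs 1 of 19, Trib3, was higher. Over all genes tested, 2.03% were higher in the Tfam line, 18.2% lower and 16.6% higher in the Rptor line, and 0.141% higher in the Cox10 line. Their median log2 fold changes were 0.41, -0.30 and 0.16. The list was written with earlier results of these data known and is no independent evidence of the direction.

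Atf4 itself had 5343, 5442 and 5471 normalised reads in control and 3162, 4172 and 4038 in Rptor-deficient lungs, which did not overlap (log2 fold change -0.53, SE 0.097; adjusted p = 0.00424, limma). In the Tfam line it had 5393, 5259 and 5471 in control and 6365, 6149 and 5879 in deficient lungs, separate but not past the threshold (log2 fold change 0.19; limma adjusted p = 0.0860). ATF4 is regulated mainly in translation, which these data do not measure.

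Asns, the asparagine synthetase that makes the substrate of Nars, had 1153, 1531 and 1461 normalised reads in control and 757, 870 and 819 in Rptor-deficient lungs, which were separate (-0.75 on the log2 scale; limma adjusted p = 0.00156). In Tfam lungs the values were 993, 1027 and 1092 in control and 3089, 2984 and 3150 in deficient lungs, again separate but with the deficient lungs above (1.57 on the log2 scale; limma adjusted p = 3.3e-07). Of the enzymes of serine synthesis, whose product is the substrate of Sars, Phgdh gave -0.69 and 0.28 and Psat1 -0.94 and 0.24 in the Rptor and Tfam lines, each past the threshold. Psph, of the same pathway, gave -0.14 and 0.33 and did not pass in the Rptor line. Slc7a5, a transporter of large neutral amino acids, gave -0.61 and 0.74, also past it in each line. Mthfd2, a mitochondrial folate enzyme, fell by 49.9% in the Rptor line and rose by 101% in the Tfam line (limma adjusted p = 5.75e-05 and 0.000166).

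Of the ATF4 list, Chac1, a glutathione-degrading enzyme, had 29.5, 29.3 and 28.0 normalised reads in control and 341, 347 and 307 in Tfam-deficient lungs, a log2 fold change of 3.47 (limma adjusted p = 3.3e-07). Atf5, a related transcription factor of the mitochondrial stress response, had a log2 fold change of 1.28 (limma adjusted p = 8.94e-06). In the Cox10 line, Chac1 had 42.9, 76.4 and 95.9 normalised reads in deficient lungs, above every control, without passing the threshold (log2 fold change 1.87; limma adjusted p = 0.0607).

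**Figure D5:**
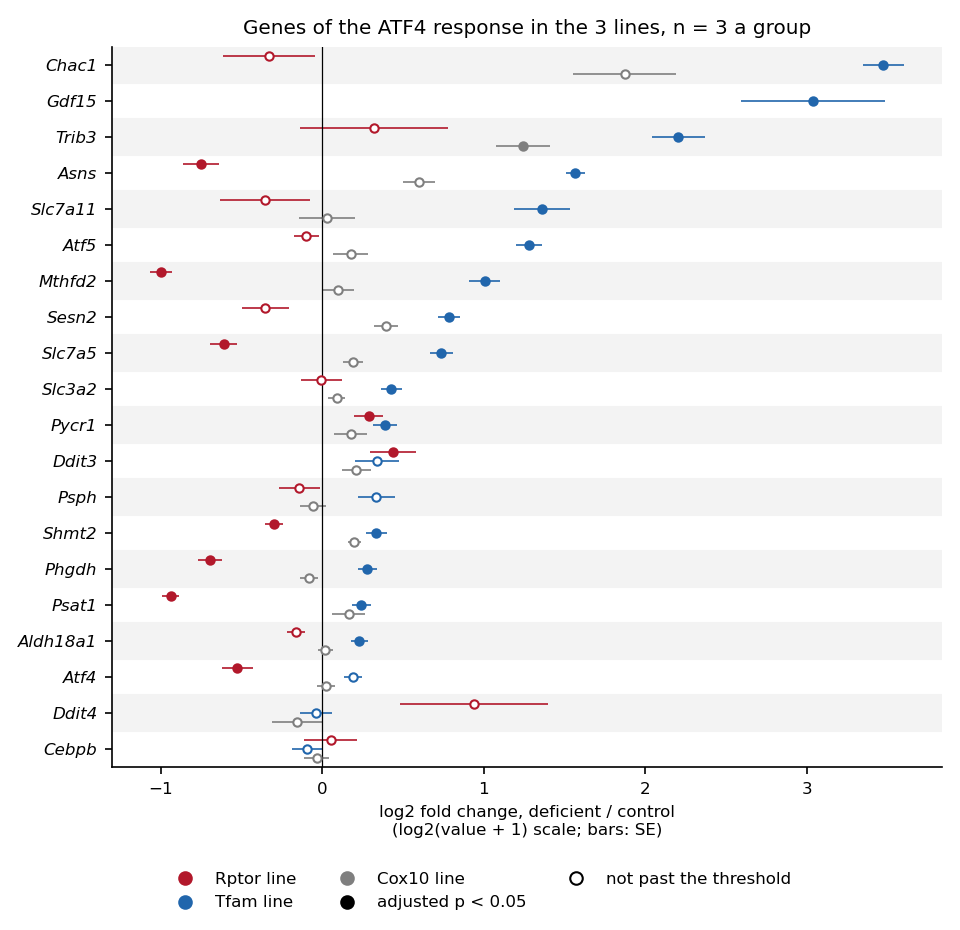
Log2 fold change, deficient against control, of the 20 genes of the ATF4 response that were tested in the Tfam line, in the Rptor (red), Tfam (blue) and Cox10 (grey) lines, with n = 3 a group; points are limma estimates, bars are SE, and filled points passed an adjusted p of 0.05. Asns, Mthfd2, Phgdh, Psat1, Shmt2 and Slc7a5 have filled points on opposite sides of 0 in the Rptor and Tfam lines; Gdf15 was tested in the Tfam line only.

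Next come eIF2 itself and the kinases and phosphatase subunits that act on it. In Rptor-deficient lungs 2 of the 7 listed genes were lower, beside 18.2% of all genes tested: Eif2s1, which encodes the alpha subunit of eIF2 (log2 fold change -0.37; limma adjusted p = 0.00246), and Ppp1r15b, a phosphatase subunit (-0.30; limma adjusted p = 0.00921). In the other lines 0 of 7 passed. Eif2ak4, which encodes GCN2, the kinase that senses uncharged tRNA, did not pass in any line, with -0.13 in Rptor, 0.03 in Tfam and -0.05 in Cox10 lungs.

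Of the 9 elongation factors, 4 were lower and 1 higher in Rptor-deficient lungs, and of the 10 genes of tRNA synthesis and processing 3 were lower and 1 higher, where 18.2% of all genes tested were lower and 16.6% higher. The mitochondrial factors Tufm, Tsfm and Gfm1 had log2 fold changes of -0.29, -0.37 and -0.35, and the cytosolic Eef1d had -0.26, whereas Eef2 had 0.31 (limma adjusted p = 0.0175). Of the tRNA genes, Polr3g, a subunit of RNA polymerase III, had -0.70, Elac2, which trims the 3′ end of tRNAs, had -0.41 and Xpot, the tRNA exporter, had -0.31, all lower, while Maf1, a repressor of RNA polymerase III, was higher at 0.24. In the Tfam and Cox10 lines 0 of these 19 genes passed the threshold.

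Wars, the tryptophan enzyme, is also known as an interferon-induced gene. It was lower in Rptor-deficient lungs (log2 fold change -0.40; limma adjusted p = 0.00135). In Tfam-deficient lungs Wars had a log2 fold change of -0.09 (limma adjusted p = 0.419), and in the Cox10 line one of -0.14 (limma adjusted p = 0.376).

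Beyond the lists, the genes most like the 4 synthetases of the Tfam line were sought by the Pearson correlation of log2 values, centred on each line's controls, with the mean of Sars, Yars, Gars and Iars over the 18 libraries. Among 14548 genes the closest were Hspa9, a mitochondrial chaperone (0.982), Mthfd2 (0.980), Pus7, a pseudouridine synthase that acts on tRNA (0.960), Slc25a33, a mitochondrial pyrimidine nucleotide carrier (0.958), and Slc7a1, a cationic amino acid transporter (0.947). The 18 libraries share genotypes and library effects, and these values are a description.

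Slc7a1 had 2203, 2226 and 2037 normalised reads in control and 3106, 3031 and 3161 in Tfam-deficient lungs, and 1967, 2198 and 2112 against 1372, 1453 and 1414 in the Rptor line. It was thus separate in both, below the controls without Rptor and above them without Tfam, with log2 fold changes of -0.56 without Rptor and 0.52 without Tfam (limma adjusted p = 0.000454 and 0.000422). Hspa9 had log2 fold changes of -0.33 in the Rptor line (limma adjusted p = 0.00138) and 0.25 in the Tfam line (limma adjusted p = 0.0632). Both genes were picked by their likeness to the synthetases in these same libraries. Their directions and adjusted p are therefore no independent evidence.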

How the data were processed

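Total RNA of whole lungs was extracted with RNeasy columns. The labels name an Illumina library protocol and the study's methods a BGISEQ sequencer. Trim Galore, HISAT2, featureCounts and DESeq2 and the mm10 build are named in the submitters' processing notes, without versions, and whether counting used strand is not given in the sources used here. The values deposited by the authors are a signal per gene, the read count divided by a size factor of each library, in 1 table per line. Values in each library were whole multiples of 1 step within 0.05 reads, which gave the depth. The tables also hold the authors' own fold changes and p-values, which were not used. All columns of per-sample values were mapped to a sample by name.

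Within each line, genes with at least 10 normalised reads in at least 3 of the 6 libraries were tested with limma 3.58.1 in R 4.3.3 (linear model with empirical Bayes moderation and an intensity trend, two-sided) on log2(value + 1), with Benjamini-Hochberg adjustment over all genes tested and a threshold of 0.05. Fold changes are on that scale and understate changes of low genes. Differences between lines were interaction contrasts in a fit of all 18 libraries on 14548 genes. The scripts were tested on simulated data. Tables were prepared in Python 3.11.15 with numpy 2.4.6 and pandas 2.3.3.

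Groups came from the sample labels. Values in every library were given, per line, for the 5 cytosolic and 3 mitochondrial genes with the largest log2 fold change in size among those past the threshold, for genes past it in opposite directions in a pair of lines, and for Gars and Kars. Values of Sars in the Rptor and Cox10 lines, of Cars2, and of genes of the other lists were chosen after they were seen. The most similar genes were the 5 with the highest Pearson correlation. The members and the gene lists were chosen with earlier results of these data known. Gene positions and exons came from GENCODE vM21 (GRCm38, the assembly of mm10) and promoters from RefSeq on GRCm38.p6. In the Rptor line, deviations of libraries with the same replicate number correlated weakly (0.221, 0.330 and 0.259 over genes for numbers 1, 2 and 3). The labels do not say that the number pairs libraries, and these correlations do not settle it. The main fits therefore did not use the number, and the block on it is an alternative. Alternatives were scaling to library totals or by trimmed means, other filters, pseudocounts and thresholds, the block, 1 fit of all libraries, and leaving out each library. Individual values of some items are not reported here.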

Additional observations from a re-analysis of the deposited data

Results flagged for a closer look

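The synthetase genes whose response differed between lines are given here with their values; each difference is the log2 fold change in one line minus that in the other and passed limma's interaction contrast at an adjusted p below 0.05. For Tfam minus Rptor the cytosolic genes gave 0.75 for Cars, 0.71 for Gars, 0.70 for Mars, 0.67 for Yars, 0.63 for Iars, 0.54 for Nars, 0.47 for Aars, 0.46 for Tars, 0.40 for Farsb, 0.39 for Sars, 0.36 for Eprs, 0.36 for Lars, 0.35 for Rars and 0.31 for Wars. The mitochondrial genes gave 0.35 for Tars2 and 0.27 for Iars2. Gars, Iars and Yars passed the threshold within both lines, in opposite directions, and Sars passed within the Tfam line alone.

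For Rptor minus Cox10 the differences were -0.57 for Cars, -0.50 for Mars, -0.44 for Gars, -0.37 for Farsb, -0.37 for Aars, -0.35 for Iars, -0.29 for Nars, -0.28 for Iars2 and -0.26 for Wars. None of the 37 genes passed within the Cox10 line. Without Cox10-deficient replicate 3, which was the lowest of its line in 19 of the 20 cytosolic genes, 18 genes passed instead of 9. The share of all genes in that fit is not given here, and the rise is not shown to be particular to the synthetases. Dixon's test for a single outlying value was not applied.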

How the results depend on the processing

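Leaving out each library in turn kept 14 to 16 cytosolic genes lower in the Rptor line (median log2 fold change -0.37 to -0.32) and 2 to 6 mitochondrial genes (median -0.16 to -0.13). It gave 0 to 7 cytosolic genes in the Tfam line (median 0.04 to 0.09) and 0 mitochondrial genes (-0.04 to 0.03), where 2.41% to 7.46% of all genes passed. In the Cox10 line it gave 0 of either (cytosolic -0.12 to -0.00, mitochondrial -0.03 to 0.01). Of the differences between lines, 12 to 18 genes passed for Tfam minus Rptor, 6 to 18 for Rptor minus Cox10 and 0 for Tfam minus Cox10. At an adjusted p below 0.01, 1 mitochondrial gene stayed past the threshold in the Rptor line, 0 cytosolic genes in the Tfam line, 8 genes for Tfam minus Rptor and 5 for Rptor minus Cox10, as the stricter threshold makes by construction. Scaling to library totals or by trimmed means, other filters and pseudocounts and 1 fit of all libraries left the other counts within 1.5 times the reported ones. Under these settings Iars missed the threshold in the Tfam line with no filter and in the fit of all libraries (adjusted p = 0.0618 and 0.143, limma), and Nars passed there with library totals and in the fit of all libraries. In the Rptor line Aars2 missed it with library totals and Hars passed in the fit of all libraries; no other synthetase changed its call within a line, and the cause was not tested. With the replicate number as a block, 17 cytosolic and 6 mitochondrial genes passed in the Rptor line, 5 cytosolic genes in the Tfam line, where Nars was added (adjusted p = 0.0393, limma), and 17, 10 and 0 genes for the 3 differences in the order above; within the lines the block changed no call but those of Nars and Aars2. Correlations of libraries with the same number were -0.312, -0.207 and 0.151 in the Tfam line and 0.447, 0.202 and 0.0488 in the Cox10 line. Pairing by the number is thus not shown in any line. A count model in edgeR was planned on the reads recovered from the scaled values and was not run. With 3 libraries a group and SEs of 0.043 to 0.14 on the log2 scale, small changes are not resolved.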

Other observations

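Among the control libraries, which all carried 1 floxed copy of a different gene, several synthetases were lower in the Tfam line than in the others. Sars had 2709 to 3259 normalised reads in the Tfam controls and 4222 to 4958 in the Rptor controls, and Yars had 1961 to 2434 and 3503 to 4148. The 20 cytosolic genes summed to between 73775 and 77329 normalised reads in the Tfam controls, 94124 and 96401 in the Rptor controls and 98128 and 100448 in the Cox10 controls. The 3 tables were scaled separately and these levels were not tested against each other. Hspa9, Pus7 and Slc25a33, which were among the genes most like the 4 synthetases of the Tfam line, had adjusted p of 0.0632, 0.128 and 0.119 there (limma).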
